A study of Mus musculus with 2 samples.

Results

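This account concerns the genes of the T cell receptor complex and its proximal signalling machinery in splenocytes of mice immunized with glucose-6-phosphate isomerase (GPI). A list of 44 genes was fixed by symbol. Of these, 38 had a probe set carrying only that 1 symbol in the platform annotation, out of 12393 genes on the array. The other 6 (Lck, Skap1, Themis, Ubash3a, Tcf7 and Cd69) had no such probe set in the annotation used here and are not analysed. The list rests on gene symbols and not on a cut-off in measured values, but it was drawn up with earlier results of these data known.

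The GPI-immunized group was male mice of the DBA/1 strain, obtained at an age of 6 to 8 weeks and injected with 300 μg of recombinant human GPI fused to glutathione S-transferase (GST) in complete Freund's adjuvant, which gives an acute arthritis. The control group was male DBA/1 mice of the same age range injected with 100 μg of GST in the same adjuvant, so that both groups had received adjuvant and the carrier protein. Spleens were taken on day 10, and RNA of whole splenocytes was read on 1 Affymetrix mouse 430A 2.0 array per group. The methods name 3 spleens per group and do not say whether their RNA was pooled. Without replicate arrays no test was possible, and each ratio describes only these 2 arrays. No unimmunized or adjuvant-only spleen was measured on arrays.

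T cells recognize peptides bound to MHC molecules through an antigen receptor whose variable chains have no signalling tail of their own. The CD3 chains and the ζ chain carry tyrosine motifs, which the Src family kinases Lck and Fyn phosphorylate. The kinase Zap70 then docks on these motifs and phosphorylates the adaptors LAT and SLP-76, on which exchange factors, Tec family kinases and phospholipase assemble. Calcium, Ras and protein kinase C signals from this complex end in NFAT, AP-1 and NF-κB. In the spleen, T cells fill the sheaths around the central arterioles, beside the B cell follicles.

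The start regions of 4 receptor chain genes and of the adaptor gene Lat are shown, because the receptor chains assemble into 1 complex while their ratios differed, and Lat was among the members with the lowest ratios. Each sequence is RefSeq's window from 250 bases before to 50 bases after the annotated start, assembly GRCm38.p6, 5′ to 3′ on the gene's own strand. Capitals mark AGGAAG, a core bound by ETS factors such as the member Ets1, and CAGGTG, an E-box bound by E proteins, each searched on both strands, so that the reverse complement of either is capitalized too. These motifs do not overlap each other here.
Cd3g (chr9:44980382-44980681, minus strand): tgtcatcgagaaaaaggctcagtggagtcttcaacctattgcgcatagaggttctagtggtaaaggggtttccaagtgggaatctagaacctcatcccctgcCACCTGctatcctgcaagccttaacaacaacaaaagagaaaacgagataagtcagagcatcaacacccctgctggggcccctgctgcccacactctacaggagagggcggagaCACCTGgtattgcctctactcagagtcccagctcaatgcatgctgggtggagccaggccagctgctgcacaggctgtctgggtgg
Cd3d (chr9:44981536-44981835, plus strand): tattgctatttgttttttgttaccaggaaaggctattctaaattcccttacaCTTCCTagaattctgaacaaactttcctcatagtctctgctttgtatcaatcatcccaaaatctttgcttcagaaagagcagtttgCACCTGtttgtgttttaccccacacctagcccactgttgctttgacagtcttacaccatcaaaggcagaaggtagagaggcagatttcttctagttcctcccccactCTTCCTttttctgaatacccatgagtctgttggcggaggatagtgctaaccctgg
Cd3e (chr9:45009562-45009861, minus strand): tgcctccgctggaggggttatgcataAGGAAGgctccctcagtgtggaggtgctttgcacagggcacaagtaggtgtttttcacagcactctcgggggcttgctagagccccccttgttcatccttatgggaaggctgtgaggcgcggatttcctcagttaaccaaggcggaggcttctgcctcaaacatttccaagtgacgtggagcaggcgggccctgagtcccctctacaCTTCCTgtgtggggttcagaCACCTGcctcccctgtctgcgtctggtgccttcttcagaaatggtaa
Cd247 (chr1:165788431-165788730, plus strand): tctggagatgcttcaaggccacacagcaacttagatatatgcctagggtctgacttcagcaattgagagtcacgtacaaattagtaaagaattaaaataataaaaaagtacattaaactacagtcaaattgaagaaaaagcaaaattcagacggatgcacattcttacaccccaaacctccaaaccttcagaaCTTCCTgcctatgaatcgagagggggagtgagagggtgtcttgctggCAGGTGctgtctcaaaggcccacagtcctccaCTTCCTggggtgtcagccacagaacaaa
Lat (chr7:126369519-126369818, minus strand): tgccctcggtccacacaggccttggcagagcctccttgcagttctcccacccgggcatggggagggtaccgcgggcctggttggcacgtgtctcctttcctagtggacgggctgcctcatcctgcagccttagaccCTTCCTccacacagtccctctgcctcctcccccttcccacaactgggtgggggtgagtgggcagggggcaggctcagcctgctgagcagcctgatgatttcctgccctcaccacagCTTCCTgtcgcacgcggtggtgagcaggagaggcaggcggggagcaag
Cd3g and Cd3d are transcribed away from each other, and 854 bases lie between their windows. AGGAAG was found 2 times each in the windows of Cd3d, Cd3e, Cd247 and Lat and was not found in that of Cd3g. CAGGTG was found 2 times for Cd3g, 1 time each for Cd3d, Cd3e and Cd247, and not for Lat. Over all 43 windows of the 27 measured members that the RefSeq table holds, AGGAAG was present in 58.1% of windows against 35.4% of all 32851 windows, and CAGGTG in 34.9% against 20.2%. Of 4 other motifs searched on both strands, CTTTGA (TCF and LEF factors) was present in 27.9% of member windows against 16.0%, and GGAAAA (NFAT) in 27.9% against 23.4%. TGTGGT (RUNX) was present in 11.6% against 16.8%, and a motif of GATA factors, AGATAA, in 9.30% against 11.2%. A match is a run of letters and was not tested as a binding site.

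Most of the measured T cell receptor genes had a lower signal in GPI-immunized than in control splenocytes, by amounts that were mostly under 2-fold. A signal here is the deposited intensity of 1 probe set on a linear scale, and the ratio is the GPI-immunized over the control signal without further scaling. Signals of the 38 members ran from 16.1 to 1537.6 (median 91.85) in GPI-immunized and from 5.5 to 2578.5 (median 116.15) in control splenocytes. Counts were made over the 31 members, and over the 6961 genes in all, whose higher signal was at least 50.2 (the 50th percentile of all signals), below called the signal limit. Of these 31 members, 25 had a ratio below 1 and 6 above 1, whereas 42.4% of all genes past this limit had a ratio below 1. A ratio lower by at least 1.5-fold was seen in 7 of the 31 members (22.6%), against 3.23% of all genes, and a ratio higher by at least 1.5-fold in 1 member, against 7.04% of all genes. At 2-fold the count was 1 lower, against 0.445% of all genes, and 0 higher, against 2.23%. The median log2 ratio was -0.43 over these members and 0.06 over all genes.

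As a technical yardstick, the log2 ratios of the 2 brightest probe sets of a gene past the signal limit were compared. This yardstick came to a standard deviation of 0.26 on the log2 scale per probe set, taken over 2538 pairs. Differences between mice or between hybridizations are not part of it. Of the 31 members, 20 lay more than this below a ratio of 1, 1 lay more than this above it, and 10 lay within it, against 16.2% of all genes past the signal limit below and 25.6% above. Of these 31, 4 (Txk, Grap2, Tbx21 and Icos) reached the signal limit on 1 array only. Over the 27 that reached it on both arrays, a limit chosen after the data were examined, 22 were below 1 and 5 were at least 1.5-fold lower (median log2 ratio -0.36), against 42.4% and 2.41% of all genes under the same limit (median 0.05). Over all 38 with no limit, 29 were below 1 and 8 at least 1.5-fold lower, against 45.0% and 14.0% of all 12393 genes.

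The median signal was 51.8 for GPI-immunized and 48.65 for control splenocytes. Whether this is a difference of scale between the 2 arrays is not known, as the scaling of the deposited values is not given. Division of each array by its median, quantile normalization and loess centring each moved the members further below 1, with 26 of 30 below 1 and 10 at least 1.5-fold lower, as Icos left the signal limit. All genes moved the same way, with 54.9%, 53.4% and 51.8% of them below 1 and 5.49%, 5.50% and 5.16% at least 1.5-fold lower under these 3 scalings. The same scalings changed the balance over all genes. As deposited, 490 genes were at least 1.5-fold higher and 225 lower (68.5% higher), and the share higher was 48.4% after division by the median, 48.5% after quantile normalization and 51.4% after loess centring. The members' median stayed 0.49 below that of all genes as deposited and 0.50 to 0.51 below it under these scalings.

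**Figure D1:**
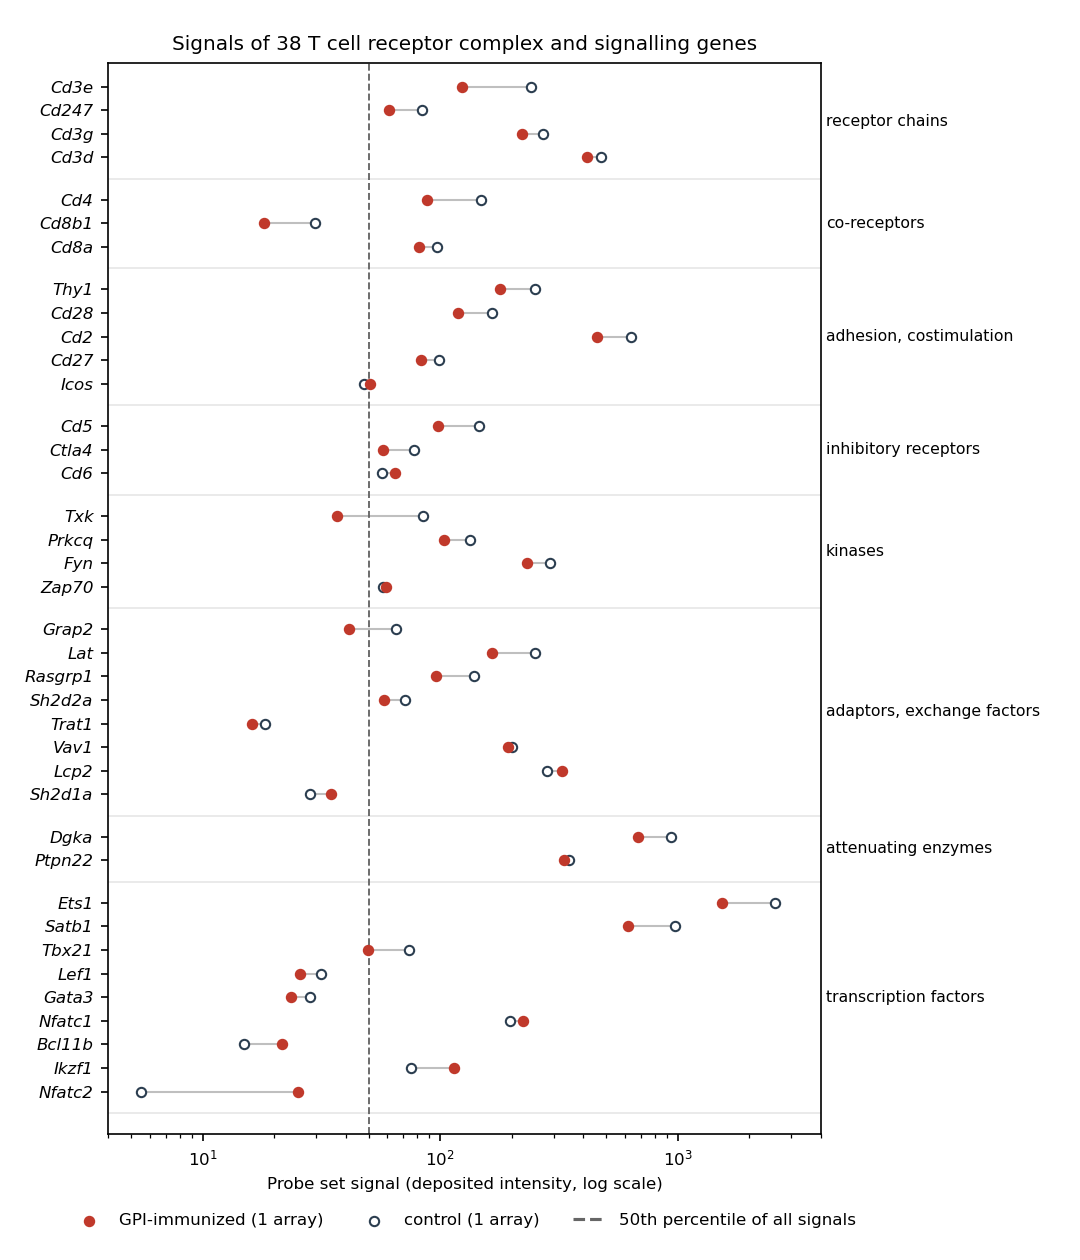
Signal of the 38 measured members (deposited intensity, log axis) on the GPI-immunized array (filled) and the control array (open), 1 array each, grouped by role, with the 50th percentile of all signals (50.2) as a dashed line. The filled point lies to the left of the open one for all 4 receptor chains, whereas Ikzf1 (GPI-immunized 114.3, control 75.7) and Lcp2 (GPI-immunized 327.0, control 280.7) are the other way round.

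All 4 measured signalling chains of the receptor had ratios below 1 on their brightest probe sets, and they were not lowered alike. Cd3e (Entrez Gene 12501), which encodes the ε chain shared by both CD3 heterodimers, had a signal of 123.1 in GPI-immunized and 241.7 in control splenocytes, a ratio of 0.509 (log2 ratio -0.97). It ranked 35th lowest of 6961 genes. Cd247 (12503), the ζ chain that carries most of the tyrosine motifs, had 61.1 in GPI-immunized and 84.2 in control splenocytes, a ratio of 0.726. It has 3 dimmer probe sets, of which 1 had 30.0 in GPI-immunized and 29.3 in control splenocytes and the others lay under 14.1 on both arrays, and averaging all 4 turned the direction (ratio 1.39). Cd3g (12502) had 220.6 in GPI-immunized and 271.7 in control splenocytes, a ratio of 0.812. Cd3d (12500), the brightest of the chains, had 414.6 in GPI-immunized and 475.1 in control splenocytes, a ratio of 0.873. The ε chain thus stood apart from its partners at the same locus on chromosome 9. Its log2 ratio lay 0.78 below that of Cd3d and 0.67 below that of Cd3g, which are 2.10 and 1.82 times the yardstick for a difference between probe sets (0.37). Each of these 3 genes has 1 probe set, so the difference rests on single probe sets. Of the variable and constant segments of the receptor chains, only Trbv13-2 could be measured among 19 listed symbols, together with Ptcra, the surrogate α chain of thymocytes. Both lay under the signal limit, and Ptcra under the highest bacterial control signal of 14.1 as well, so no ratio is given. In whole splenocytes, fewer T cells and less of a transcript per T cell cannot be told apart.

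The co-receptors had ratios below 1 as well, to unequal degrees. Cd4, which binds MHC class II and marks helper T cells, had 88.1 in GPI-immunized and 148.3 in control splenocytes, a ratio of 0.594. Cd8a, which binds MHC class I on cytotoxic T cells, had 81.1 in GPI-immunized and 96.9 in control splenocytes, a ratio of 0.837. The log2 ratio of Cd4 lay 0.49 below that of Cd8a, 1.34 times the yardstick for a difference. The second Cd8a probe set (GPI-immunized 63.8, control 87.0) gave a lower ratio of 0.733, and the dim second Cd4 probe set (GPI-immunized 4.3, control 7.7) lay at background. Cd8b1, the β chain of CD8, was under the signal limit with 18.2 in GPI-immunized and 29.6 in control splenocytes, a ratio of 0.615. Of these co-receptors Cd4 alone had a ratio beyond the yardstick and past the signal limit on its brightest probe set, whereas that of Cd8a lay within the yardstick, and the order of Cd4 and the Cd8 chains was not settled by these probe sets.

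Among adhesion and costimulatory molecules, 4 of 5 measured genes had ratios between 0.717 and 0.841. Thy1, the surface glycoprotein used as a pan T cell marker in mice, had 179.3 in GPI-immunized and 250.2 in control splenocytes (ratio 0.717). Cd28, the receptor for CD80 and CD86, had 119.1 in GPI-immunized and 165.9 in control splenocytes (0.718), and its second probe set gave 59.2 in GPI-immunized and 85.1 in control splenocytes (0.696). Cd2, an adhesion receptor that mouse B cells carry too, had 459.4 in GPI-immunized and 636.5 in control splenocytes (0.722). These 3 genes with signals that differ several-fold had nearly the same ratio. Cd27, a TNF receptor family member of T and NK cells, had 83.1 in GPI-immunized and 98.8 in control splenocytes (0.841). Icos, a costimulator induced on activated and follicular helper T cells, was the exception, with 50.8 in GPI-immunized and 47.7 in control splenocytes (1.06). Its ratio was between 0.995 and 1.00 under the 3 other scalings, and its dimmer probe set had 25.6 in GPI-immunized and 12.0 in control splenocytes (2.13).

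The inhibitory surface receptors did not move together. Cd5, which dampens receptor signals in T cells and B-1 cells, had 98.3 in GPI-immunized and 145.1 in control splenocytes (0.677). Ctla4, the competitor of CD28 for its ligands, had 57.6 in GPI-immunized and 77.8 in control splenocytes (0.740). Cd6, a relative of Cd5 encoded next to it on chromosome 19, had 64.8 in GPI-immunized and 57.0 in control splenocytes (1.14), within the yardstick. Each of these genes was measured by 1 probe set.

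Txk, a Tec family kinase of T and NK cells that phosphorylates phospholipase Cγ, had the lowest ratio of all members. It had a signal of 36.8 in GPI-immunized and 84.5 in control splenocytes, a ratio of 0.436 (log2 ratio -1.20), the 10th lowest of 6961 genes. Raising both signals to at least 50.2 left it at 0.594. Prkcq, the protein kinase C isoform recruited to the T cell synapse, had 104.2 in GPI-immunized and 133.5 in control splenocytes (0.781). Fyn, a Src family kinase also present in other blood cells, had 233.1 in GPI-immunized and 290.1 in control splenocytes (0.804), and a second probe set gave 119.7 in GPI-immunized and 194.9 in control splenocytes (0.614). Both Fyn probe sets were lower in GPI-immunized splenocytes. The direction for Zap70, the kinase that binds the phosphorylated receptor, was not settled. Its probe set with the higher mean log2 signal had 59.2 in GPI-immunized and 57.6 in control splenocytes (1.03, or 0.958 to 0.967 under the 3 other scalings), whereas the other had 32.0 in GPI-immunized and 73.2 in control splenocytes (0.437). The log2 ratios of this pair lay 1.23 apart.

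**Figure D2:**
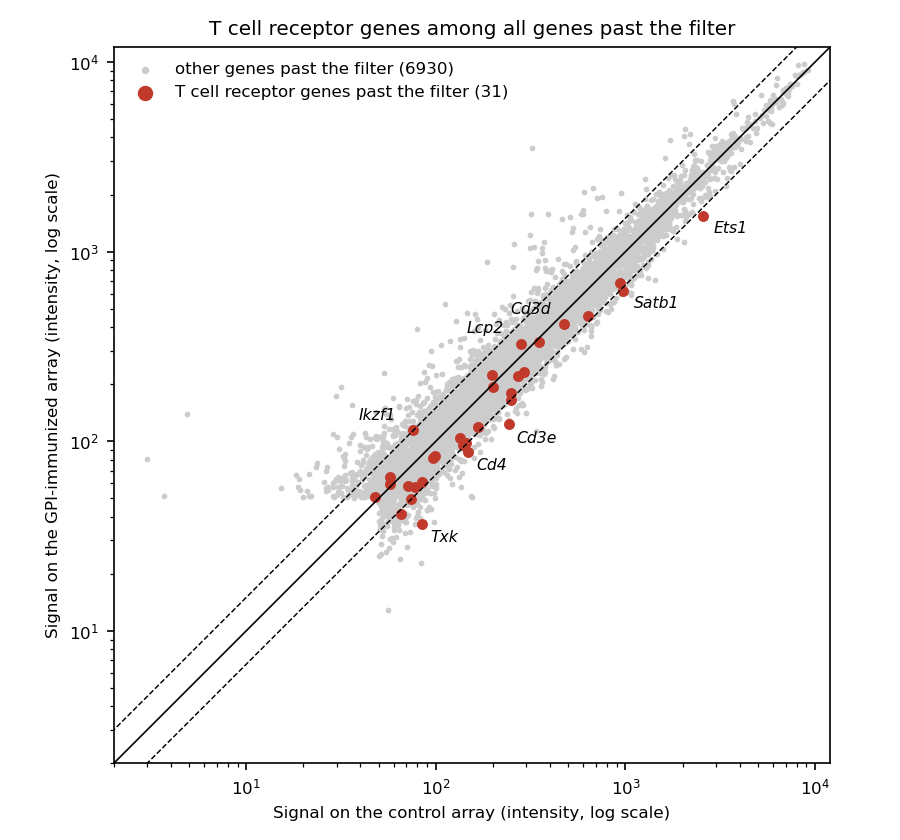
Signal on the GPI-immunized array (vertical) against the control array (horizontal), deposited intensities on log axes, for the 31 members past the signal limit (red) and 6930 other genes (grey), with the ratio of 1 (solid) and 1.5-fold ratios (dashed). Most members lie under the solid line, with Txk, Cd3e, Cd4 and Ets1 under the lower dashed line and Ikzf1 at the upper one.

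The ratios of the 6 adaptors and exchange factors past the signal limit ran from 0.633 (Grap2) to 1.16 (Lcp2). Grap2 (GADS), which links LAT to SLP-76, had 41.3 in GPI-immunized and 65.2 in control splenocytes (0.633), while its dimmer probe set had 17.1 in GPI-immunized and 15.0 in control splenocytes. Lat, the membrane scaffold that Zap70 phosphorylates, had 164.9 in GPI-immunized and 249.6 in control splenocytes (0.661). Rasgrp1, the diacylglycerol-dependent activator of Ras, had 95.6 in GPI-immunized and 138.9 in control splenocytes (0.688). Its next brightest probe set gave 54.6 in GPI-immunized and 63.7 in control splenocytes (0.857). The dimmest Rasgrp1 probe set, under the signal limit, had 34.9 in GPI-immunized and 29.0 in control splenocytes (1.20). Grap2 and Lat belong to the same signalling complex. Sh2d2a (TSAd), an adaptor that binds Lck, had 58.3 in GPI-immunized and 71.4 in control splenocytes (0.817). Vav1, an exchange factor of all blood lineages, had 192.2 in GPI-immunized and 200.3 in control splenocytes (0.960). Lcp2 (SLP-76), which myeloid cells and platelets use as well, had 327.0 in GPI-immunized and 280.7 in control splenocytes (1.16). The dimmer Lcp2 probe set, under the signal limit, had 34.2 in GPI-immunized and 35.7 in control splenocytes (0.958). Under the signal limit lay Trat1, a transmembrane adaptor of the receptor (GPI-immunized 16.1, control 18.3), and Sh2d1a (SAP), the adaptor of SLAM receptors (GPI-immunized 34.6, control 28.2).

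The enzymes that attenuate the signal were lower or nearly equal. Dgka, which removes diacylglycerol and so limits Rasgrp1, had 683.1 in GPI-immunized and 938.8 in control splenocytes (0.728). Ptpn22, a phosphatase acting on Lck and Zap70 and present in other lymphocytes and myeloid cells, had 333.3 in GPI-immunized and 348.4 in control splenocytes (0.957). The ratio of Dgka lay beyond the yardstick and that of Ptpn22 within it.

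The transcription factors past the signal limit had ratios on both sides of 1. Ets1, an ETS factor abundant in resting T and B cells, had 1537.6 in GPI-immunized and 2578.5 in control splenocytes (0.596). Its other probe sets gave ratios of 0.606, 0.624 and 0.849. Satb1, a chromatin organizer of thymocytes and T cells, had 616.8 in GPI-immunized and 972.5 in control splenocytes (0.634), with its other probe sets at 0.628 and 0.552. All 7 probe sets of these 2 genes were thus lower in GPI-immunized splenocytes. Tbx21 (T-bet), the type 1 helper T cell and NK cell factor, had 49.5 in GPI-immunized and 73.8 in control splenocytes (0.671). Ikzf1 (Ikaros), a zinc finger factor of all lymphoid and many myeloid cells, had 114.3 in GPI-immunized and 75.7 in control splenocytes (1.51), which became 1.42 to 1.43 under the 3 other scalings. Nfatc1, which calcineurin activates, had 222.2 in GPI-immunized and 197.3 in control splenocytes (1.13), and its dimmer probe set had 93.6 in GPI-immunized and 45.0 in control splenocytes (2.08). Under the signal limit lay Lef1 (GPI-immunized 25.8, control 31.6), a partner of Tcf7 in naive T cells, Gata3 (GPI-immunized 23.5, control 28.2), the type 2 helper factor, and Bcl11b (GPI-immunized 21.5, control 15.0), which keeps T cell identity. Nfatc2 had 25.1 in GPI-immunized and 5.5 in control splenocytes. Its control signal lay in the range of the bacterial controls, and both signals lay under the signal limit. A floor of 14.1 gave this probe set a ratio of 1.78, and a floor of 50.2 gave 1.0, so the ratio depended on the floor. The 3 other probe sets stayed under 14.1 on both arrays, with ratios of 0.679, 0.790 and 1.385. Averaging all 4 gave a ratio of 1.36.

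**Figure D3:**
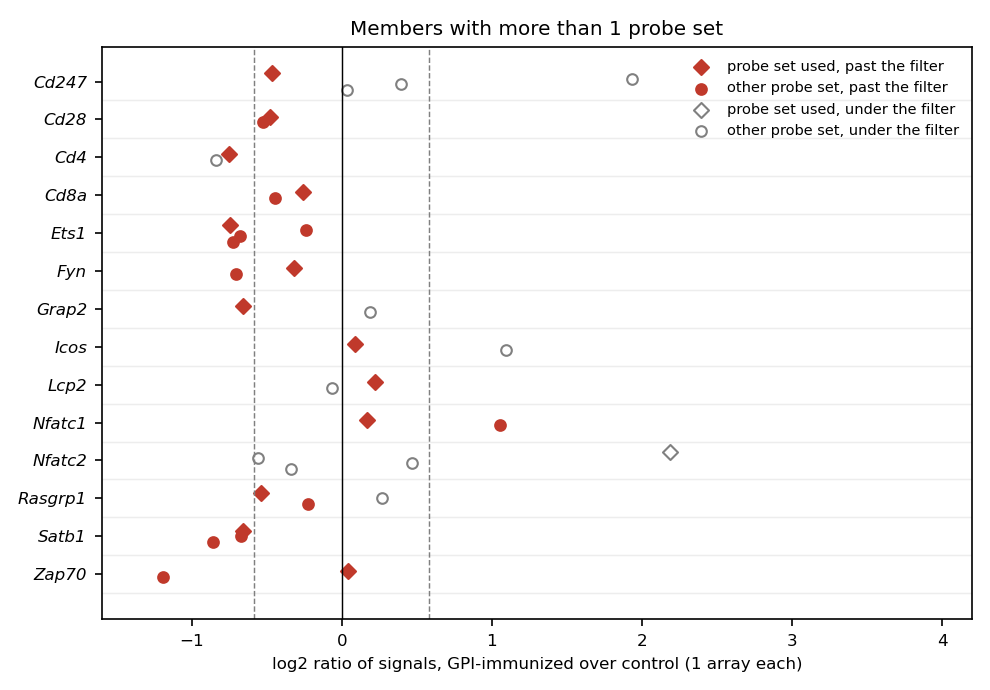
Log2 ratio of signals (GPI-immunized over control, 1 array each) for every probe set of the 14 members that have more than 1, with dashed lines at 1.5-fold, diamonds for the probe set used and filled symbols for probe sets past the signal limit. The probe sets of Ets1, Satb1, Cd28, Cd8a and Fyn all lie left of 0, whereas those of Zap70 lie 1.23 apart.

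Other probe sets of the members gave mostly the same direction where they passed the signal limit, but not below it. Of the 11 that were not used for the ratios above and passed the signal limit, 10 had a ratio below 1 and 1 (Nfatc1) above 1. Several of these 11 belong to Ets1 and Satb1. Over all genes past the limit, 42.4% had a ratio below 1 on the probe set used. Under the limit, unused probe sets of Cd247, Grap2, Rasgrp1 and Lcp2 and some of Nfatc2 lay on the other side of 1 from the one used. Those of Cd4 and Icos lay on the same side. Of the 8 members with more than 1 probe set past the limit, 7 had all of these on 1 side of a ratio of 1, and Zap70 did not. The same share over all genes was not counted. These probe sets were read in the same hybridizations and are no independent samples.

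The members were also divided by where they are generally known to be expressed, which these arrays do not measure. Of 21 members past the limit classed as largely restricted to T cells or to T cells and some other lymphocytes, 18 were below 1. At least 1.5-fold lower were 5 of these 21 (median log2 ratio -0.46). This class holds Cd2, which mouse B cells carry too, and Cd5, which B-1 cells carry, so the division is not strict. Of 10 classed as commonly expressed by B cells or myeloid cells as well, 7 were below 1 and 3 (Ikzf1, Lcp2 and Nfatc1) above 1. At least 1.5-fold lower were 2 of these 10, Ets1 and Satb1 (median log2 ratio -0.19). Over all genes past the limit, 42.4% were below 1 and 3.23% at least 1.5-fold lower, with a median log2 ratio of 0.06. The difference between these classes was not tested.

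A list of further receptor pathway genes, many of them expressed by other blood cells too, was centred near a ratio of 1. Of the 36 on this list past the signal limit, 17 (47.2%) were below 1, against 42.4% of all genes, and 19 above. Their median log2 ratio was 0.01. The dual specificity phosphatase Dusp2 (247.5 in GPI-immunized and 378.2 in control splenocytes, 0.654), the GTPase Rhoh (0.716) and the kinase Tec (0.722) were lowest. The adaptors Nck1 (GPI-immunized 138.3, control 71.5, 1.93) and Dok2 (GPI-immunized 80.7, control 48.8, 1.65) and the kinase Akt1 (1.38) were highest. Dusp2 was the only one of these 36 at least 1.5-fold lower (2.78%, against 3.23% of all genes). Nck1 and Dok2 were the only ones at least 1.5-fold higher (5.56%, against 7.04% of all genes). Both shares were near those of all genes.

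Most genes of naive and recirculating lymphocytes also had ratios below 1. Of 11 past the signal limit, 9 were below 1 and 5 at least 1.5-fold lower, with a median log2 ratio of -0.56. The shares over all genes past the limit were 42.4% and 3.23%, with a median of 0.06. This list, like the other lists beside the members, was chosen with earlier results of these data known. The comparison with all genes is therefore a description only. The chemokine receptor Ccr9 had 45.1 in GPI-immunized and 82.1 in control splenocytes (0.549) and passed the limit through the control array only. The interleukin-7 receptor Il7r, a survival receptor of resting T cells, had 205.0 in GPI-immunized and 362.7 in control splenocytes (0.565), and the lymph node homing receptor Ccr7 had 348.0 in GPI-immunized and 542.6 in control splenocytes (0.641). The forkhead factor Foxp1 (0.652), Nsg2 (0.662) and the sphingosine phosphate receptor S1pr1 (0.680) followed, whereas Igfbp4 (1.19) and the integrin Itga4 (1.26), named after their values were seen, were above 1. B cells share Ccr7, Foxp1 and S1pr1 with T cells.

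Markers of other spleen cells differed between the arrays in the same comparison. Among all genes past the signal limit, 42.4% were below 1 and 7.04% at least 1.5-fold higher. All 7 B cell markers past the signal limit were below 1 (median log2 ratio -0.34), with Fcer2a, the low-affinity IgE receptor, at 705.5 in GPI-immunized and 1437.2 in control splenocytes (0.491), and the summed signal of the 8 measured ones was 12274.2 in GPI-immunized and 16034.2 in control splenocytes. Of 4 NK cell markers past the limit, 3 were below 1 (median -0.25), with Klrk1 at 0.766 and Nkg7 at 1.39, and the 5 measured ones summed to 574.0 in GPI-immunized and 597.1 in control splenocytes. All 8 neutrophil markers were above 1 (median 1.03), 6 of them at least 1.5-fold, and their summed signal was 35416.5 in GPI-immunized and 25283.7 in control splenocytes. The 6 macrophage markers lay between 1.02 and 1.24, with sums of 4336.5 in GPI-immunized and 3825.6 in control splenocytes. Of 4 plasma cell markers measured, 3 were past the limit and above 1, with Xbp1 at 1.89, and the sums were 8464.7 in GPI-immunized and 7261.1 in control splenocytes. Of 3 erythroid markers, Slc4a1 (0.789) and Alas2 (0.796) were below 1, with sums of 7496.1 in GPI-immunized and 9474.6 in control splenocytes. None of these markers was at 0. The part of these cell types in the ratios of the T cell receptor genes was not tested.

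**Figure D4:**
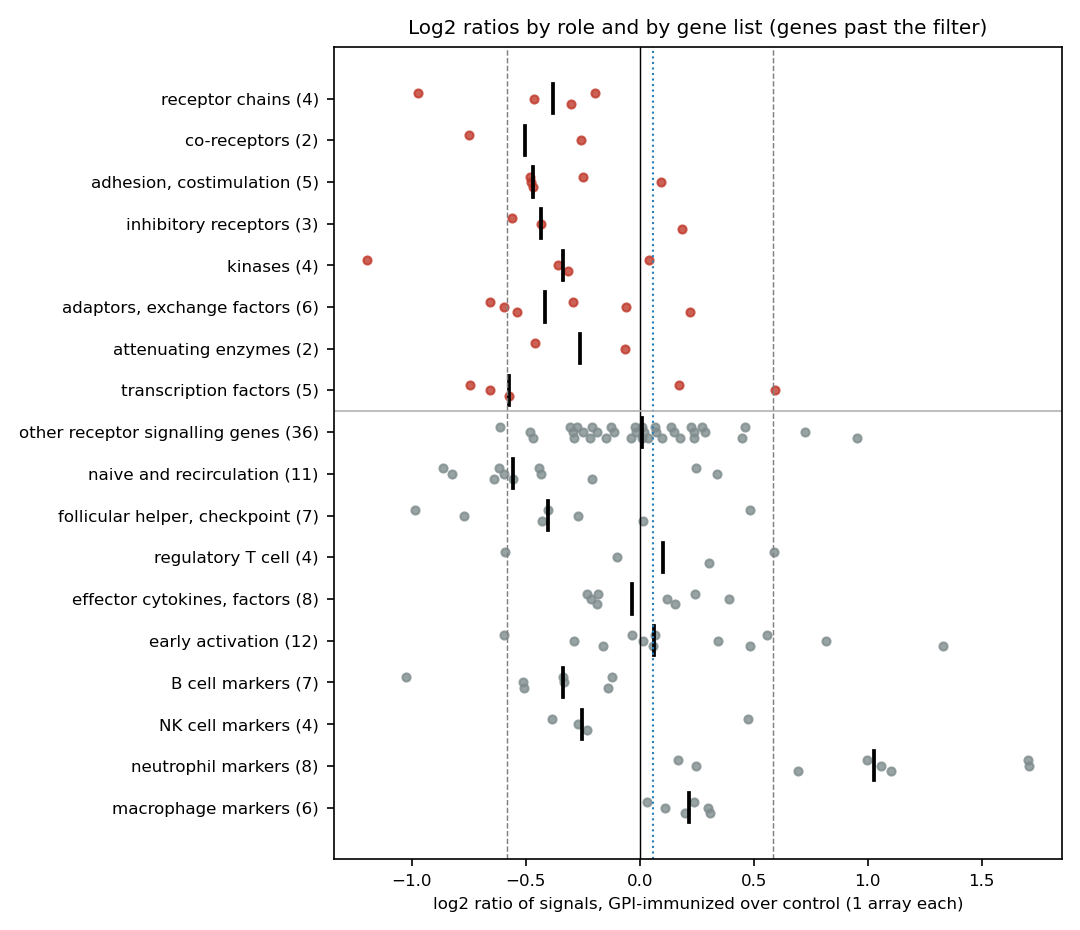
Log2 ratio of signals (GPI-immunized over control, 1 array each) for genes past the signal limit, by role for the members (red) and by list for other genes (grey), with the number of genes in parentheses, list medians as black bars, 1.5-fold ratios as dashed lines and the median of all genes (0.06) as a dotted line. Every role of the members has a median below 0, other receptor signalling genes centre at 0.01, and the neutrophil markers at 1.03.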

How the data were processed

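RNA of whole splenocytes, 1 sample per group, was read on Affymetrix mouse 430A 2.0 arrays. The authors deposited an intensity (linear scale) for each probe set, made with what they call gene expression software. Summarization and scaling were steps not given in the sources used here. As for the hybridized material, the labels describe labelled cDNA, and the paper biotinylated cRNA. Of 22626 probe sets other than 64 control probe sets, the platform annotation gives 20380 exactly 1 symbol, 691 several and 1555 none. All 38 measured members matched the RefSeq table of GRCm38.p6 by gene ID. For each gene the probe set brightest by mean log2 signal was taken, and 3 signals of 0 were raised to 0.1. The bacterial control probe sets (15) reached 6.3 in GPI-immunized and 14.1 in control splenocytes. The number of arrays limits the precision.

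All members may be named. Of the other lists, genes furthest from a ratio of 1 are named (up to 6 of a pathway list, 3 of a cell type list), with genes under the signal limit named as such. Members and lists were chosen with earlier results of these data known. The steps were tested on simulated data. The alternatives were 3 scalings, 3 floors on low signals, 2 other choices of probe set and 3 other signal limits, with 2 limits added after the data were examined. The software was Python 3.11.15, pandas 2.3.3, numpy 2.4.6, statsmodels 0.14.6 and matplotlib 3.10.9.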

Additional observations from a re-analysis of the deposited data

How the results depend on the processing

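The median log2 ratio of the members stayed negative under all 13 alternatives, between -0.54 and -0.31. The count of members below 1 stayed within 1.5 times of 25 except with the signal limit at the 75th percentile. That limit leaves 13 members, 11 of them below 1 and 4 at least 1.5-fold lower, against 42.0% and 2.25% of all genes past it. The count of members at least 2-fold lower was 1 (Txk) as deposited, against 0.445% of all genes. It was 2, Txk and Cd3e, under each other scaling. It was 0 with a floor at the 50th percentile, with the limit at the 75th percentile and with both signals required to reach the 50th percentile. The share of all genes at 2-fold was not counted under these alternatives. Their share at least 1.5-fold lower rose from 3.23% to between 5.16% and 5.50% under the other scalings. The count at least 1.5-fold higher (1, Ikzf1) was 0 under each other scaling and with the limit at the 75th percentile, against 5.16% to 5.46% of all genes. It was 2 with all probe sets of a gene averaged, with no limit and with the limit at the 25th percentile. The shares of all genes at least 1.5-fold higher were then 7.87%, 16.8% and 13.5%, in that order. Of 304 single ratios under 8 alternatives, 286 moved by less than the yardstick of 0.26, 18 moved by more, and none of the ratios past 1.5-fold changed sign. Averaging probe sets moved Cd247 to a log2 ratio of 0.48, Zap70 to -0.58, Grap2 to -0.23, Rasgrp1 to -0.16, Icos to 0.59, Nfatc1 to 0.61 and Nfatc2 (2.19 before) to 0.44. Signals near 50 limit Txk, Grap2, Tbx21, Icos and Zap70, for which a small additive difference moves the ratio. No paired analysis was possible because each group has 1 array, and for the same reason no replicate could be left out.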

Other observations

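Genes of T cell subsets and activation states, beyond the receptor genes, are given as values. Among all genes past the signal limit, 42.4% were below 1. Of 7 follicular helper and checkpoint genes past the signal limit, 5 were below 1, with Cd200 at a ratio of 0.504, past the limit through its control signal of 99.2 only, and the SLAM family receptor Slamf6 at 252.3 in GPI-immunized and 431.0 in control splenocytes (0.585). Bcl6, the follicular helper and germinal centre repressor, had 232.0 in GPI-immunized and 166.1 in control splenocytes (1.40). Il21 had 15.7 in GPI-immunized and 1.4 in control splenocytes, under the signal limit and close to the highest bacterial control signal of 14.1. Of 4 regulatory T cell genes past the limit, Tnfrsf4 (OX40) had a ratio of 0.664 and Entpd1 (CD39) had 112.6 in GPI-immunized and 74.9 in control splenocytes, while Foxp3, the defining factor of these cells, had 13.3 in GPI-immunized and 11.8 in control splenocytes.

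Several effector cytokines had signals close to those of the bacterial controls. Ifng had 18.1 in GPI-immunized and 13.5 in control splenocytes, and Il17a had 16.3 in GPI-immunized and 14.4 in control splenocytes. Il4 had 13.7 in GPI-immunized and 5.5 in control splenocytes, and Il2 had 1.4 on both. The signals of Il10 (GPI-immunized 6.0, control 13.4), Il5 (GPI-immunized 3.5, control 9.2) and Il13 (GPI-immunized 1.1, control 4.3) were at background. Each lay under the highest bacterial control signal of its own array (GPI-immunized 6.3, control 14.1), so no direction is given. All of these cytokines lay under the signal limit. The 8 effector genes past the limit, among them Stat4 (0.851), Eomes (0.878) and Tgfb1 (1.31), had a median log2 ratio of -0.03. Of 12 early activation genes past the limit, the feedback inhibitor Socs3 (GPI-immunized 351.9, control 140.0, 2.51) and the adhesion receptor Cd44 (GPI-immunized 857.2, control 486.1, 1.76) were highest and Egr1 (GPI-immunized 729.5, control 1103.8, 0.661) was lowest. Myeloid cells express Socs3 and Cd44 too.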
